A study of Mus musculus with 16 samples.

Results

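The cardiac connexins Gja1, Gja4, Gja5 and Gjc1 were followed across all 16 libraries of a study of fetal mouse hearts at E15.5. The 4 genes were taken by symbol, each matched exactly 1 row, and they are 4 of the 16118 genes listed. The study deleted the genes of the TALE homeodomain factors Meis1 and Meis2 and sequenced polyadenylated RNA from the atria and the ventricles of 8 embryos, giving 4 libraries per group. The dKO embryos were Meis1 flox/flox and Meis2 flox/flox and carried 1 copy of a Cre transgene driven by the alpha-myosin heavy chain (aMHC) promoter, which is active in cardiomyocytes. The control embryos carried the same floxed alleles of both genes without the transgene, so presence of Cre and the deletion cannot be told apart. The series design allows for a deletion that is either constitutive or inducible and does not say which these embryos had. The promoter leaves endothelial, smooth muscle, fibroblast and other cells of the dKO tissue outside the intended deletion, and whole chambers without the outflow tract were lysed, so each value is an average over all these cells. Levels are given in the deposited unit, CPM (reads scaled to a common library size), and in such bulk samples fewer cells of a type and less RNA per cell cannot be told apart.

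Gap junctions are channels that join the cytoplasm of neighbouring cells. Each cell supplies a hemichannel, a ring of connexin proteins, and docked hemichannels pass ions and small molecules, which lets an action potential spread from myocyte to myocyte. Gja1 encodes connexin-43, the main gap junction protein of working ventricular myocardium, and Gja5 encodes connexin-40, found in atrial myocytes, in the ventricular conduction system and its fetal trabecular precursor, and in arterial endothelium. Gjc1 encodes connexin-45, a low-conductance connexin of early myocardium and of the sinoatrial and atrioventricular nodes, and Gja4 encodes connexin-37, known chiefly from vascular endothelium.

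The stretches of DNA in front of the RefSeq starts of Gja1, Gja4 and Gja5 are shown because the deleted factors are DNA-binding proteins. These are the 3 members matched in the promoter table used; a window for Gjc1 was not analysed here. Each window holds the 250 bases before the RefSeq start in the GRCm38.p6 build, read 5′ to 3′ on the strand of the gene: chr10:56377050-56377299 (plus strand) for Gja1, chr4:127314040-127314289 (minus strand) for Gja4 and chr3:97032152-97032401 (plus strand) for Gja5. Capitals mark matches to the motifs searched.
Gja1: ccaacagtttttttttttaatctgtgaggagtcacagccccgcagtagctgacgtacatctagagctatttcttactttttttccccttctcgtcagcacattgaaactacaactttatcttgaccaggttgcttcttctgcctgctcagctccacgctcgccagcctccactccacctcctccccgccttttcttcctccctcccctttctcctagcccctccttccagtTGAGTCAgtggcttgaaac
Gja4: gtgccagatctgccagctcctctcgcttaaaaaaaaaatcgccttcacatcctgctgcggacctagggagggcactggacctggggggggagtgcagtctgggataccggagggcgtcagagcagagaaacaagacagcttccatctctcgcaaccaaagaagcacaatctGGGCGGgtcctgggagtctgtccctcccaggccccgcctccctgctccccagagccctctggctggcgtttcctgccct
Gja5: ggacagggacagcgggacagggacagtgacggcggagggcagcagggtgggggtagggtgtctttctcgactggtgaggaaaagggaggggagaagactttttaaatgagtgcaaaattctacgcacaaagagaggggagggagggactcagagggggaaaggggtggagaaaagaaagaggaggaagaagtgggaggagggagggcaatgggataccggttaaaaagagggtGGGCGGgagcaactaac
The motifs, searched on both strands, were TGACAG (the core bound by MEIS-type TALE homeodomain proteins), AGGTGT (the T-box core), TGAGTCA (the AP-1 site) and GGGCGG (the GC box bound by SP1). TGACAG and AGGTGT have no match in any of the 3 windows; over the 32851 promoter windows of the same length, 15.9% hold TGACAG and 11.8% hold AGGTGT. The Gja1 window holds TGAGTCA at bases -19 to -13 from the start, a motif present in 4.46% of windows. GGGCGG is present at -79 to -74 in the Gja4 window and at -17 to -12 in the Gja5 window, against 32.7% of all windows. The GC content is 50% in the Gja1 window, 61.2% in the Gja4 window and 56.4% in the Gja5 window, with a median of 52.4% over all windows. The Gja5 window lies inside the annotated span of the gene, so the DNA before the most upstream annotated start of Gja5 was not searched. These matches describe the letters of these windows and no more.

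The reads recovered from the CPM came to 7.88 to 23.0 megareads per library. Every dKO ventricular library, at 7.88 to 14.3 megareads, was shallower than every control ventricular library, at 15.6 to 23.0 megareads, and the part of depth in the ventricular results was not tested. Ventricular myocyte markers were higher in ventricles than in atria for 8 of 8 genes in both genotypes, and atrial myocyte markers were lower for 10 of 10, as the chamber labels say. The lists were chosen with earlier results of these data known, so these counts are no separate check of the labels. Between chambers, 46.9% of all genes tested were called in control embryos and 49.1% in dKO embryos. Meis1 averaged 26.1 ± 3.19 CPM in dKO atria and 40.4 ± 2.61 CPM in control atria, and 40.9 ± 2.41 CPM in dKO ventricles and 41.5 ± 3.96 CPM in control ventricles (SD, n = 4 each). Meis2 averaged 26.5 ± 1.90 CPM in dKO atria and 25.4 ± 2.05 CPM in control atria, and 23.4 ± 2.85 CPM in dKO ventricles and 39.2 ± 3.46 CPM in control ventricles. These are values over each whole gene, including exons outside the floxed part and cells without Cre, so they do not measure the deletion itself. The numbers that open the sample titles split the embryos into sets of 1 dKO, of 2 dKO and 2 control, and of 1 dKO and 2 control embryos, although the protocol names 4 litters with 1 control and 1 dKO each. Values within the set of 2 dKO and 2 control embryos, called the balanced title set, are given beside the main ones.

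Gja1 fell in both chambers of the dKO embryos, and more in atria. The gene (ENSMUSG00000050953) lies at chr10:56377330-56402513 on the plus strand of GRCm38. Gja1 had 80.2, 61.5, 80.7 and 69.9 CPM in the 4 dKO atria, against 195, 191, 166 and 221 CPM in the 4 control atria. Every dKO atrium was below every control atrium, and the dKO mean was 37.8% of the control mean. In the fit of all 13950 genes tested with limma on log2(CPM + 1), two-sided with Benjamini-Hochberg adjustment, the atrial difference was -1.39 (SE 0.10, adjusted p = 1.37e-05), the 30th smallest p of all genes. Adjusted p-values here set a difference against the spread between these embryos, with the spread of each gene moderated over all genes tested.

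In ventricles, Gja1 had 326, 343, 363 and 336 CPM in the dKO embryos, against 438, 414, 449 and 424 CPM in the control embryos. The groups again did not overlap, with every dKO ventricle below every control ventricle and a dKO mean at 79.3% of the control mean. The ventricular difference was -0.33 on the log2 scale (SE 0.046, limma adjusted p = 0.00232). Within the balanced title set it was -0.27 (limma adjusted p = 0.142), and the atrial difference there was -1.44 (adjusted p = 0.000191).

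The dKO effect on Gja1 itself differed between chambers. The ventricular effect minus the atrial effect was 1.06 on the log2 scale (SE 0.11, 95% interval 0.82 to 1.29, limma adjusted p = 1.40e-05 with embryo as a block), a difference called for 2.64% of all genes. Within each embryo, the ventricle held 4.07, 5.57, 4.50 and 4.81 times the Gja1 level of the atrium in the dKO embryos, against 2.24, 2.16, 2.71 and 1.92 times in the control embryos. The ratio was larger in every dKO embryo than in any control embryo. In order of level, control ventricles stood above dKO ventricles, then control atria, then dKO atria, and no neighbours in that order overlapped.

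Gja5 rose in dKO ventricles. The gene (ENSMUSG00000057123) spans chr3:96904693-97077416 on the plus strand, and 165 of its exon bases overlap Gpr89 on the opposite strand, which makes its values uncertain because the use of strand in counting is not given in the sources used here. Gja5 had 168, 154, 174 and 171 CPM in dKO ventricles, against 89.7, 108, 117 and 105 CPM in control ventricles. All dKO ventricles were above all control ventricles, and the dKO mean was 159% of the control mean. The difference was 0.67 on the log2 scale (SE 0.072, limma adjusted p = 0.000416), the 23rd smallest p of all genes. Within the balanced title set it was 0.73 (limma adjusted p = 0.00912).

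In atria, where Gja5 is most abundant, it had 405, 317, 314 and 337 CPM in dKO embryos, against 269, 252, 268 and 316 CPM in control embryos. The highest control atrium reached just above the lowest dKO atrium, so the groups overlapped. The difference of 0.31 on the log2 scale (95% interval 0.11 to 0.52) had a limma adjusted p of 0.0697 and was not called. The call depends on the settings: it passed within the balanced title set (0.28, limma adjusted p = 0.0186), with title number as a covariate (0.25, limma adjusted p = 0.0352), with DESeq2 on the recovered reads (0.31, adjusted p = 0.0143) and without control atrium 4 (0.38, limma adjusted p = 0.0397). The difference of the dKO effects, ventricles minus atria, was 0.36 (95% interval 0.11 to 0.61, limma adjusted p = 0.138), so a larger effect in ventricles was not shown. By level, dKO atria and control atria came first and overlapped, followed by dKO ventricles and then control ventricles, each apart from its neighbour.

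Gja4 rose in dKO atria. It had 217 to 617 reads per library, and the gene (ENSMUSG00000050234) lies at chr4:127311421-127314039 on the minus strand. Gja4 had 25.7, 24.4, 23.5 and 28.7 CPM in dKO atria, against 17.0, 16.9, 18.6 and 19.7 CPM in control atria. The groups did not overlap, and the dKO mean was 142% of the control mean. The difference was 0.48 on the log2 scale (SE 0.084, limma adjusted p = 0.00526), and within the balanced title set it was 0.47 (limma adjusted p = 0.0186).

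In ventricles, Gja4 had 21.9, 22.6, 20.9 and 21.7 CPM in dKO embryos, against 19.7, 18.6, 19.5 and 22.6 CPM in control embryos. The control ventricle with the highest value lay at the level of the highest dKO ventricle, so the groups overlapped. The difference was 0.11 on the log2 scale (95% interval -0.06 to 0.28, limma adjusted p = 0.601). The dKO effects in ventricles and atria differed by -0.37 (95% interval -0.58 to -0.15, limma adjusted p = 0.0675), which did not pass after adjustment over all genes. In order of level, dKO atria stood apart above dKO ventricles, dKO ventricles overlapped control ventricles, and control ventricles overlapped control atria.

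Gjc1 did not pass the test of genotype in either chamber. The gene (ENSMUSG00000034520) lies at chr11:102799579-102819700 on the minus strand. Gjc1 had 66.4, 72.8, 70.6 and 66.1 CPM in dKO ventricles, against 61.1, 61.0, 67.0 and 70.6 CPM in control ventricles. In atria it had 43.3, 42.1, 43.2 and 49.4 CPM in dKO embryos, against 36.2, 42.2, 42.96 and 46.4 CPM in control embryos. The genotypes overlapped in both chambers. The difference was 0.09 in ventricles (95% interval -0.04 to 0.22, limma adjusted p = 0.588) and 0.09 in atria (95% interval -0.09 to 0.27, limma adjusted p = 0.628), so changes within those intervals cannot be told from none. Every ventricle of either genotype was above every atrium.

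**Figure D1:**
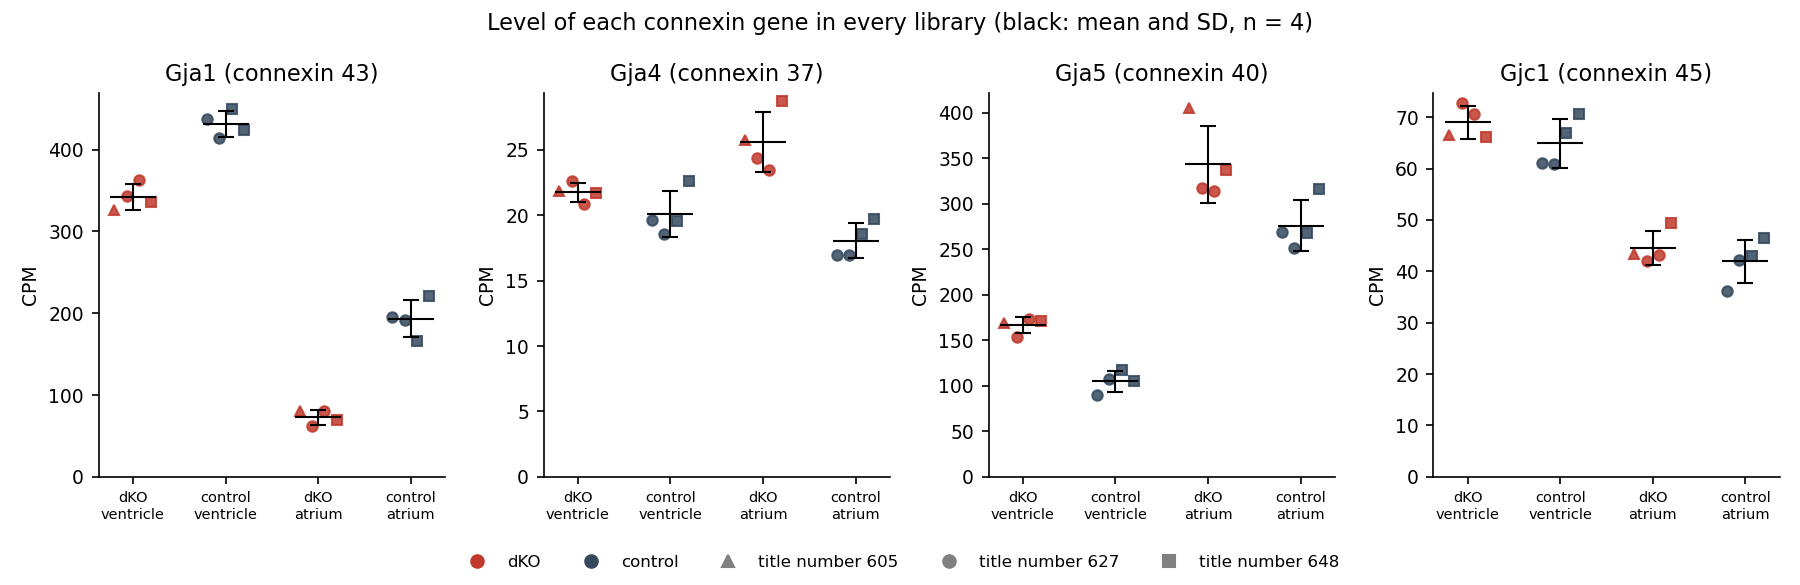
CPM of each connexin gene in every library, with 1 point per library, black bars for the mean and SD of 4 libraries, colour for genotype and marker shape for the number that opens the sample title. Gja1 lies lower in dKO than in control embryos in both chambers, Gja5 lies higher in dKO ventricles, Gja4 lies higher in dKO atria, and the Gjc1 groups overlap within each chamber.

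Between genotypes, 2 of the 4 connexins were called in atria (Gja1 lower, Gja4 higher), where 7.47% of all genes tested were called. In ventricles 2 of 4 were called (Gja1 lower, Gja5 higher), where 2.0% of all genes were. Gja1 is the only member called in both chambers.

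Between chambers of dKO embryos, all 4 connexins were called, against 49.1% of all genes tested. Each mean is over 4 libraries with its SD, and Gja4 is taken up last. Gja1 averaged 341.9 ± 15.58 CPM in ventricles and 73.1 ± 9.16 CPM in atria, a log2 difference of 2.22 (limma adjusted p = 1.71e-13). Gja5 averaged 166.8 ± 9.04 CPM in ventricles and 343.5 ± 42.5 CPM in atria, a log2 difference of -1.03 (limma adjusted p = 9.95e-09). The dKO ventricle held 0.416, 0.485, 0.553 and 0.508 times the Gja5 level of the atrium of the same embryo, against 0.334, 0.428, 0.438 and 0.332 times in control embryos, and these ranges overlapped. Gjc1 averaged 69.0 ± 3.24 CPM in ventricles and 44.5 ± 3.30 CPM in atria, a log2 difference of 0.62 (limma adjusted p = 5.13e-07). The difference of its dKO effects was 0.00 (95% interval -0.20 to 0.21).

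In control embryos 3 of the 4 connexins were called between chambers, against 46.9% of all genes tested. Gja1 was higher in ventricles (431.2 ± 15.55 CPM) than in atria (193.4 ± 22.7 CPM), a difference of 1.16 on the log2 scale (limma adjusted p = 1.03e-09). Gja5 was lower in ventricles (104.9 ± 11.5 CPM) than in atria (276.1 ± 27.6 CPM), a log2 difference of -1.39 (limma adjusted p = 1.91e-10). Gjc1 was higher in ventricles (64.9 ± 4.71 CPM) than in atria (42.0 ± 4.23 CPM), by 0.62 (limma adjusted p = 6.13e-07). Gja4 averaged 20.1 ± 1.73 CPM in ventricles and 18.1 ± 1.36 CPM in atria, a difference of 0.15 (95% interval -0.01 to 0.30, limma adjusted p = 0.107) that did not pass.

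Gja4 was the only member whose chamber difference pointed opposite ways in the 2 genotypes. It was lower in ventricles (21.8 ± 0.714 CPM) than in atria (25.6 ± 2.29 CPM) of dKO embryos, by -0.22 on the log2 scale (limma adjusted p = 0.0168), whereas control embryos had the difference of 0.15 given above, which was not called. The difference between the genotypes in this respect did not pass the test (limma adjusted p = 0.0675). The ventricle held less Gja4 than the atrium in 4 of 4 dKO embryos and more in 4 of 4 control embryos. The call in dKO embryos was lost when either of 2 embryos was left out: without dKO embryo 1 the limma adjusted p was 0.0512 (difference -0.22) and without dKO embryo 4 it was 0.101 (difference -0.16). The chamber comparisons share libraries with the genotype comparisons, so they are not separate evidence.

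**Figure D2:**
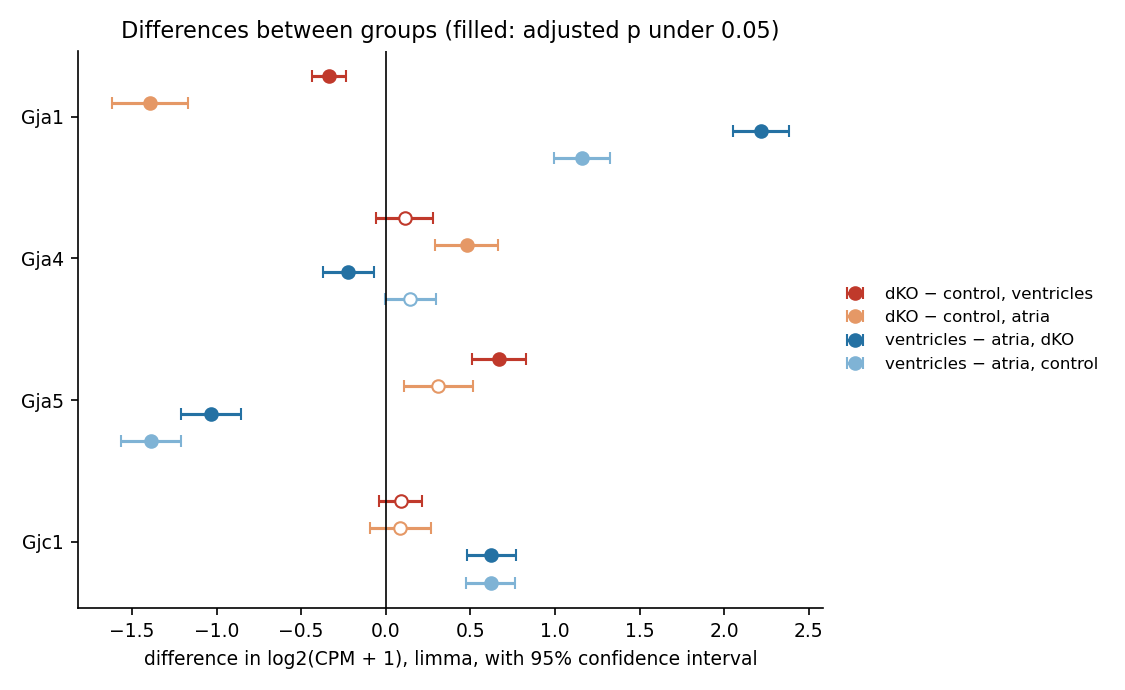
Difference in log2(CPM + 1) for each connexin in the genotype and chamber comparisons, with 95% confidence intervals from limma and filled points where the adjusted p is under 0.05. The atrial dKO effect on Gja1 (-1.39) lies well apart from its ventricular effect (-0.33), while both Gjc1 genotype differences lie near 0.

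To compare genes with each other, CPM were divided by length in kilobases. By the longest coding transcript, the 4 connexins together summed to 196 CPM per kilobase in dKO ventricles and 204 in control ventricles, and to 151 in dKO atria and 165 in control atria. The summed level ranged over 190.1 to 204 in dKO ventricles and 197 to 214 in control ventricles, and over 138 to 169.7 in dKO atria and 155 to 187 in control atria, so the genotypes overlapped in both chambers. With all exons joined as the length, the sums were 89.1 in dKO ventricles and 85.2 in control ventricles. In atria they were then 91.0 in dKO embryos and 86.0 in control embryos, and the genotypes again overlapped in both chambers. The order of the means, between genotypes and between chambers, thus turned with the length used.

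The make-up of the sum by the longest coding transcript differed between genotypes. Gja1 made 54.9% ± 0.872 of it in dKO ventricles and 66.4% ± 1.68 in control ventricles, and 15.2% ± 1.66 in dKO atria and 36.8% ± 2.19 in control atria (SD, n = 4 each). Gja5 made 23.3% ± 1.23 in dKO ventricles and 14.0% ± 1.29 in control ventricles, and 61.9% ± 2.45 in dKO atria and 45.6% ± 1.44 in control atria. For both genes the genotypes did not overlap in either chamber. Gja5 thus led in the atria of both genotypes and Gja1 in the ventricles of both. Gja4 made 6.61% in dKO ventricles and 5.85% in control ventricles, and 10.1% in dKO atria and 6.52% in control atria. Gjc1 made 15.2% in dKO ventricles and 13.7% in control ventricles, and 12.8% in dKO atria and 11.02% in control atria.

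A share depends on the other members and on the length used, and shares were given no test. With the length of all exons joined, an alternative chosen after seeing the data, Gja1 made 37.4% in dKO ventricles and 49.4% in control ventricles, and 7.85% in dKO atria and 21.9% in control atria. Gja5 then made 32.6% in dKO ventricles and 21.4% in control ventricles, and 65.6% in dKO atria and 55.8% in control atria. The leading gene of each group was the same under both lengths. In atria the order of Gja4 and Gjc1 was not: with joined exons Gja4 made 16.7% in dKO atria and 12.5% in control atria, above Gjc1 with 9.82% in dKO atria and 9.77% in control atria.

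**Figure D3:**
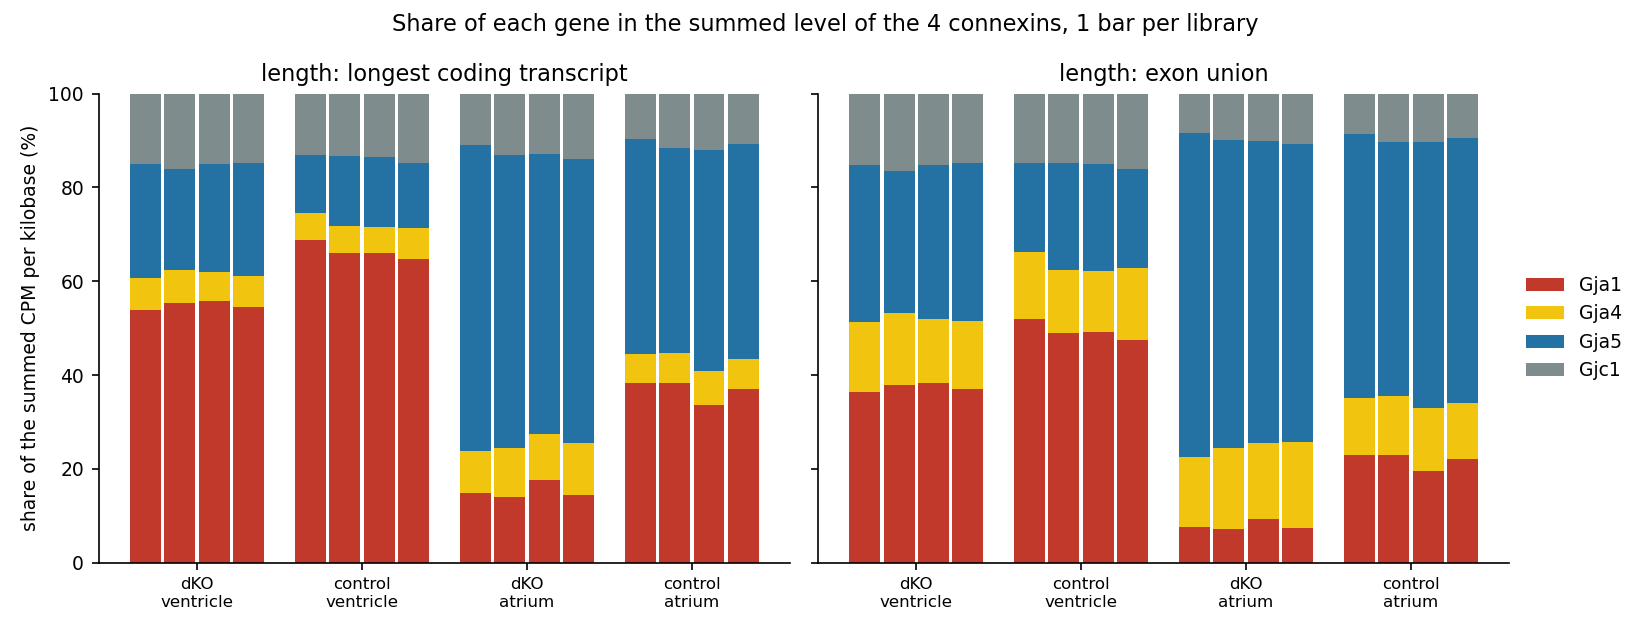
Share of each gene in the summed CPM per kilobase of the 4 connexins, 1 bar per library, with length taken as the longest coding transcript (left) or as all exons joined (right). Gja1 takes a smaller part in dKO than in control libraries of both chambers, and Gja5 a larger part, under both lengths.

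Markers of several cell types moved with genotype in atria, and their part in the connexin results was not tested. The counts below stand beside 7.47% of all genes called in atria and 2.0% in ventricles, and in lists of 6 to 12 genes 1 called gene is already above those shares. Of 12 cardiomyocyte markers 0 rose and 2 fell in dKO atria (Actn2, -0.36, limma adjusted p = 0.0232, and Ldb3, -0.33, limma adjusted p = 0.00907). Their summed level was 26804 to 28695 CPM in dKO atria and 29882 to 34445 CPM in control atria, which do not overlap. Myh6 weighs most in these sums (9594 CPM in dKO atria and 11611 CPM in control atria) and was not called (limma adjusted p = 0.303). The mean log2 level of the list, in which each gene weighs alike, was 10.15 to 10.32 in dKO atria and 10.38 to 10.60 in control atria. Of 8 ventricular myocyte markers 3 fell in dKO atria, where the list is low (summed 104 to 143 CPM in dKO atria and 218 to 299 CPM in control atria): Lrrc10, Cited1 and Myl3. Of 10 atrial myocyte markers 3 rose (Nppa, Fgf12 and Sln) and 2 fell (Bmp10 and Mybphl), with sums of 13405 to 14742 CPM in dKO atria and 10589 to 12582 CPM in control atria. Nppa weighs heavily in these sums, with 5920 ± 704 CPM in dKO atria and 3827 ± 594 CPM in control atria. The median difference of the list was only 0.06 on the log2 scale.

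Beside the atrial rise of Gja4, 1 of 12 endothelial markers rose (Eng) and 1 fell (Kdr), and their sum was 1165 to 1458 CPM in dKO atria and 1184 to 1208 CPM in control atria. Of 8 arterial endothelial markers 2 rose (Bmx and Efnb2) and 1 fell (Hey1), with sums of 340 to 415 CPM in dKO atria and 327 to 360 CPM in control atria. Among 10 smooth muscle and pericyte markers 4 rose and 1 fell (Abcc9), with sums of 1128 to 1548 CPM in dKO atria and 884 to 1011 CPM in control atria, and none of the 6 endocardial markers was called. Fibroblast markers rose in 3 of 9 cases (6471 to 10639 CPM in dKO atria and 5544 to 7397 CPM in control atria), epicardial markers in 2 of 7 and macrophage markers in 1 of 8, and none of these fell. Tcf21 is on both the fibroblast and the epicardial list and is counted in each. Col1a1, Col1a2 and Col3a1 weigh most in the fibroblast sums, and none of them was called in atria. In ventricles none of the endothelial, arterial, endocardial, smooth muscle, fibroblast, epicardial or macrophage markers was called, 1 of 12 cardiomyocyte markers fell (Nebl), 3 of 8 ventricular markers fell (Irx4, Cited1 and Lrrc10), and 3 of 10 atrial markers rose (Nppa, Fgf12 and Myl4). No marker of these cell types was at 0 reads in all libraries of a group.

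Each connexin was therefore also read relative to the mean log2 level of the cardiomyocyte and of the endothelial markers in the same library, and dKO and control libraries were compared by a two-sided exact permutation test (70 arrangements of 4 against 4). The smallest p this allows is 0.0286, and 16 such values were computed. Each adjusted value of 0.0457 comes from a test at that smallest p. It depends on how many of the 16 tests reached it, so these values do not stand alone. The tests also overlap, since each connexin is set against both marker lists. Relative to cardiomyocyte markers, Gja1 was -4.05 ± 0.180 in dKO atria and -2.87 ± 0.086 in control atria, a difference of -1.18 (exact p = 0.0286, adjusted 0.0457), and lower in 4 of 4 dKO atria. In ventricles the difference was -0.27 (exact p = 0.0286, adjusted 0.0457). Relative to endothelial markers, Gja1 differed by -1.53 in atria and -0.33 in ventricles, each with the same exact p. Against either marker mean, Gja1 was lower in every dKO library than in every control library of the same chamber.

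Gja4 relative to endothelial markers was -1.47 ± 0.158 in dKO atria and -1.81 ± 0.090 in control atria, a difference of 0.34 (exact p = 0.0286, adjusted 0.0457), smaller than the 0.48 seen without that reference. In ventricles it was 0.12 (exact p = 0.143). Gja5 relative to cardiomyocyte markers was higher by 0.73 in dKO ventricles and by 0.52 in dKO atria (exact p = 0.0286 and adjusted 0.0457 in each), and relative to endothelial markers by 0.68 in ventricles (exact p = 0.0286, adjusted 0.0457). In atria Gja5 relative to endothelial markers differed by 0.17 (exact p = 0.143, adjusted 0.163). Gjc1 relative to cardiomyocyte markers differed by 0.29 in atria (exact p = 0.0286, adjusted 0.0457) and by 0.15 in ventricles (exact p = 0.0571), and relative to endothelial markers by -0.05 in atria (exact p = 0.629) and 0.10 in ventricles (exact p = 0.257). The atrial Gja5 and Gjc1 values passed against a cardiomyocyte mean that was itself lower in dKO atria (10.26 on the log2 scale) than in control atria (10.47), and neither gene was called in atria without that reference.

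Of 16 other connexin genes looked up, 5 have a row, and 2 of these passed the minimum of a mean of 1 CPM. Gja3, which encodes connexin-46, a connexin best known from the lens, averaged 34.0 ± 3.003 CPM in dKO ventricles and 24.7 ± 3.48 CPM in control ventricles, and rose by 0.45 on the log2 scale (limma adjusted p = 0.0385). In atria it averaged 31.3 ± 4.84 CPM in dKO embryos and 28.6 ± 3.03 CPM in control embryos (0.12, limma adjusted p = 0.630). Gjd3, a connexin reported in the mouse atrioventricular node, averaged 7.85 ± 1.95 CPM in dKO atria and 4.21 ± 0.244 CPM in control atria, and rose by 0.74 (limma adjusted p = 0.0186).

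In ventricles Gjd3 was near its lower limit, with 9 to 31 reads per dKO library and 12 to 28 per control library (0.25, limma adjusted p = 0.741). Gjb5 (0 to 14 reads per library) and Gjc3 (0 to 7) were below the minimum and not tested. Of the pannexins, which form channels in the membrane of a cell without docking to its neighbour, Panx2 averaged 30.6 ± 2.72 CPM in dKO atria and 23.6 ± 2.48 CPM in control atria and rose by 0.37 (limma adjusted p = 0.0330). Panx1 differed by 0.27 in atria (limma adjusted p = 0.113), and neither pannexin was called in ventricles.

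Among 15 junction partners, proteins of the intercalated disc that neighbour gap junctions, 1 rose and 3 fell in dKO atria (list median -0.08 on the log2 scale, beside 0.00 over all genes, of which 7.47% were called), and none was called in ventricles (0.05, beside -0.02 over all genes). Dsc2, a desmosomal cadherin, averaged 8.89 ± 1.05 CPM in dKO atria and 42.2 ± 5.54 CPM in control atria, a log2 difference of -2.12 (limma adjusted p = 2.20e-06). In ventricles Dsc2 averaged 36.3 ± 1.69 CPM in dKO embryos and 36.3 ± 1.71 CPM in control embryos. The desmosomal plaque protein gene Pkp2 fell in dKO atria by 0.44 (limma adjusted p = 0.0135), and so did Tjp1, whose product ZO-1 binds the connexin-43 tail, by 0.26 (limma adjusted p = 0.0297). Cxadr, an adhesion receptor of the disc, rose by 0.32 (limma adjusted p = 0.0232).

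Of 12 genes of connexin trafficking and turnover 1 was called in dKO atria, a share close to the 7.47% of all genes: Cav3, a muscle caveolin, which fell by 0.57 (limma adjusted p = 0.0168), and none in ventricles (list medians -0.04 in atria and -0.06 in ventricles). Of 11 kinases that phosphorylate connexins 1 was called in dKO atria, again close to the 7.47% of all genes: Prkca, a protein kinase C, which fell by 0.51 (limma adjusted p = 0.00612), and none in ventricles (list medians -0.02 in atria and -0.01 in ventricles).

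Among 20 genes of transcription factors and signals known to act on connexin genes, 1 rose and 1 fell in dKO atria and 3 rose and 1 fell in dKO ventricles (list medians 0.00 in atria and 0.05 in ventricles). Of all genes tested, 7.47% were called in atria and 2.0% in ventricles, so the atrial count of 2 of 20 is close to that of all genes and the ventricular count of 4 of 20 is above it. Tbx2, a T-box repressor of chamber genes, rose in both chambers, to 29.3 ± 7.54 CPM in dKO atria, against 15.2 ± 2.32 CPM in control atria (0.88, limma adjusted p = 0.00916), and to 20.6 ± 3.49 CPM in dKO ventricles, against 12.2 ± 1.09 CPM in control ventricles (0.70, limma adjusted p = 0.00718). Tbx5, a T-box activator of Gja5 in mouse, rose in ventricles to 47.8 ± 6.22 CPM in dKO embryos, against 35.5 ± 1.65 CPM in control embryos (0.41, limma adjusted p = 0.0249), and Tbx20 rose there by 0.35 (limma adjusted p = 0.0109). Id2, an inhibitor of helix-loop-helix factors, fell in dKO ventricles by 0.42 (limma adjusted p = 0.0136), and Etv1, an ETS factor of fast-conducting myocardium, fell in dKO atria by 0.71 (limma adjusted p = 0.00271).

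Cntn2, among the 15 conduction system genes listed, was below the minimum mean of 1 CPM and not tested. It had 0 reads in every dKO ventricular library, and these were shallower than the control ventricular libraries. In no other group was it at 0 reads throughout. Of the 14 conduction system genes tested, 2 fell in dKO atria (Etv1 and Cacna2d2, a calcium channel subunit, Cacna2d2 by 0.80, limma adjusted p = 0.000784). In dKO ventricles 1 rose (Cacna1h, a T-type calcium channel, by 0.30, limma adjusted p = 0.0113) and 1 fell (Id2), with list medians of -0.22 in atria and -0.03 in ventricles. For comparison, 7.47% of all genes tested were called in atria and 2.0% in ventricles. Both counts in this list of 14 are above those shares, and each rests on few genes. Etv1 and Id2 were also counted among the transcription factors and signals above, so the counts of these lists are not separate.

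**Figure D4:**
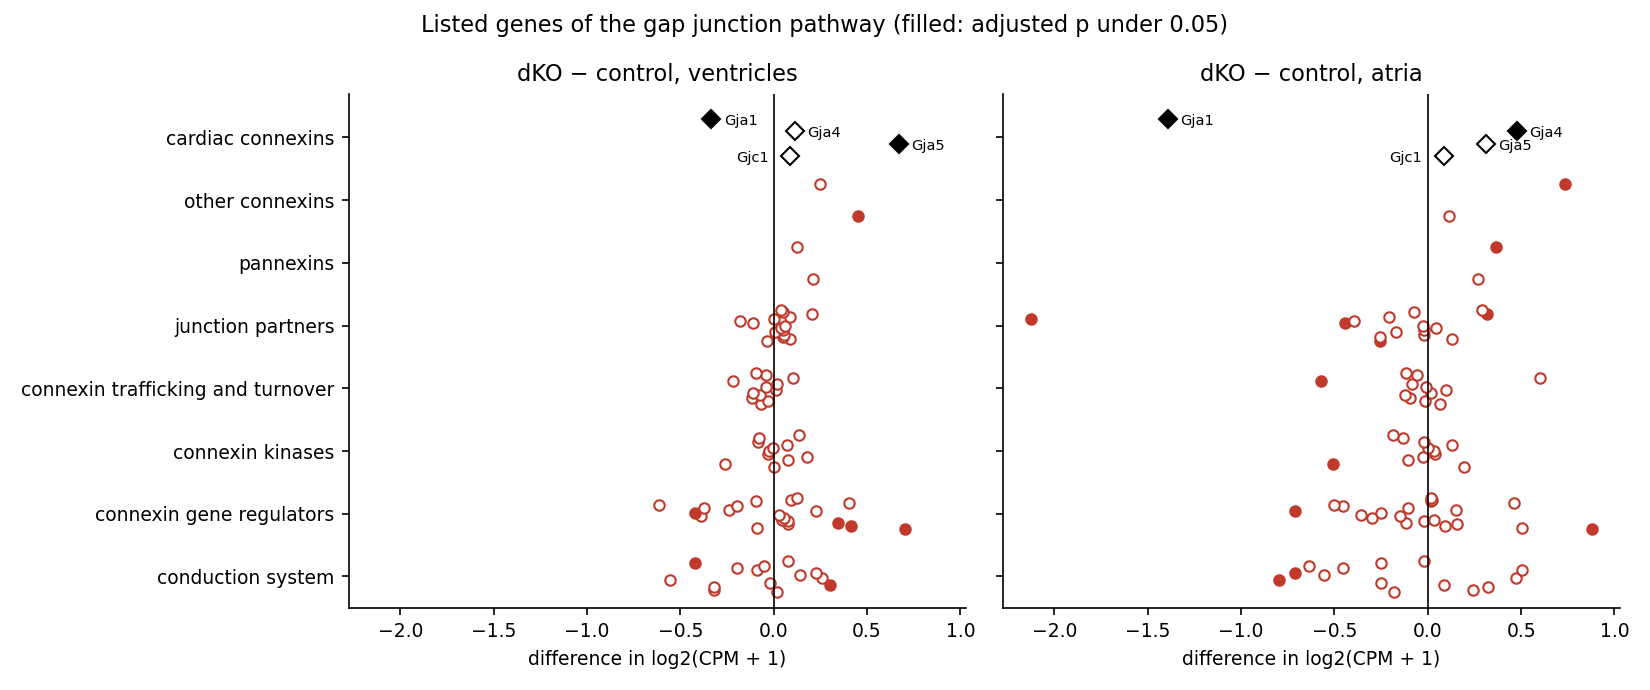
Difference in log2(CPM + 1) between dKO and control embryos, in ventricles (left) and atria (right), for the 4 connexins (diamonds) and for the listed genes around them (circles), filled where the limma adjusted p is under 0.05. In atria Dsc2 (-2.12) and Gja1 (-1.39) lie farthest to the left, and in ventricles Tbx2 (0.70) and Gja5 (0.67) farthest to the right.

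The genes whose levels across the 16 libraries were most like each connexin are given as Pearson correlations of log2(CPM + 1), as a description: the libraries share 4 groups, both chambers of an embryo and their depth. For Gja1 these were Lpar3 (r = 0.989), Abcc9 (0.984), Lrrc10 (0.983), Clic4 (0.983) and Ppip5k2 (0.982). For Gja5 they were Pla2g4e (r = 0.984), Atp6v0e2 (0.981), Adora1 (0.973), Fgf12 (0.969) and Npy1r (0.967). For Gjc1 they were Ppp5c (r = 0.977), Smim20, Ngdn, Cd34 and Hmgb3 (0.965), and for Gja4 Brsk1 (r = 0.901), Gnas, Cdc42ep3, P4ha3 and Sept4 (0.840). Differences between the 4 groups enter all of these values.

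With each group mean subtracted, other genes led. For Gja1 they included Adam11 (r = 0.847), E2f8, Ccna2 and Fancd2 (0.797), and for Gja5 Orc1 (r = 0.908), Cdc25b, Map2k3os, Ncbp2 and Hlf (0.821). For Gja4 they were Exosc2 (r = 0.935), Cfap126, Yaf2, Zfp428 and Copz2 (0.862), and for Gjc1 Psmc1 (r = 0.931), Atp6v0c, Nup85, Pycrl and Ubxn6 (0.853). None of the 5 leading genes of any connexin recurred once the group means were taken out. Among the connexins themselves, Gja1 and Gja5 had r = -0.88 over the 16 libraries and 0.43 with group means subtracted, and Gja4 and Gjc1 had 0.11 and 0.77.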

How the data were processed

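Polyadenylated RNA of both chambers was read in single reads of 60 bases. The submitters' processing notes name cutadapt, RSEM 1.3.1 and the build GRCm38. The authors deposited CPM for 16118 genes; the sources used here do not say how libraries were scaled, genes filtered or strands used. Every deposited CPM equals whole reads plus 0.5 times 1 step per library (100% of values whole within 0.001), so reads were recovered. A floor of 3 reads corresponded to 0.110 to 0.312 CPM, for counting error only.

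Tests used log2(CPM + 1) of 13950 genes (mean over all libraries 1 CPM or more), with limma 3.58.1 in R 4.3.3 and a mean-variance trend, two-sided, called at a Benjamini-Hochberg adjusted p under 0.05. All 4 connexins passed the minimum. Genotypes were compared in 4 against 4 libraries per chamber. Chambers, and the difference of the dKO effects, came from a joint fit of the 16 libraries in which embryo was a block, since the titles tie both chambers to 1 embryo (consensus correlation 0.108). Genotypes were not paired. The test code was tested on simulated data without an embryo effect, so the fit with embryo as a block was not covered. On the recovered reads, edgeR 4.0.16 called 1031 genes in atria and 259 in ventricles, and DESeq2 1.42.0 called 1552 and 469. Levels per length used GENCODE M21 on GRCm38, and promoter sequences came from a RefSeq table in which 3 of the 4 genes were matched. Of the rows, 206 have no gene name.

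The members and lists were chosen with earlier results of these data known. Named were the 4 connexins, the other connexins and pannexins with a row, up to 3 genes per list with the smallest adjusted p under 0.05 in a dKO comparison, and the 5 genes most like each connexin. Results for 2 of these genes are not reported here. Some list members named beyond 3 were chosen after their values were seen. Alternatives covered the pseudocount, filter, scaling, tool, title number, block and each left-out library or embryo.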

Additional observations from a re-analysis of the deposited data

Results flagged for a closer look

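The dKO effect on Gja1 differed between chambers by 1.06 on the log2 scale (ventricles minus atria, limma adjusted p = 1.40e-05): -0.33 in ventricles and -1.39 in atria. No other connexin of the 4 passed this test, and the Gja1 value stayed between 0.98 and 1.15 in each fit with another setting or a left-out embryo.

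Gjc1 in dKO atrium 4, at 49.4 CPM, stood apart from the other dKO atria at 42.1 to 43.3 CPM. The gap to its neighbour was 0.835 of the range of the group, just above Dixon's limit for 4 libraries. Chance gives such a gap in about 1 of 20 groups, and 16 groups were looked at.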

How the results depend on the processing

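The 20 connexin results were refitted under 356 alternatives; 344 kept direction and side of the threshold. Gja1 in atria (-1.46 to -1.31), Gja4 in atria (0.41 to 0.52) and Gja5 in ventricles (0.60 to 0.73) kept both throughout. The values relative to marker means had 144 refits. Those with another pseudocount kept direction and side of the threshold. Those with 1 library left out were given no p, and each difference moved by less than the SD within groups. Gja5 in atria, not called in the main fit, was called with DESeq2 (0.31, adjusted p = 0.0143), with title number as a covariate (0.25, 0.0352) and within the balanced title set (0.28, 0.0186). Leaving out 1 library gave 0.23 to 0.38. Gja1 in ventricles was not called within the balanced title set (-0.27, adjusted p = 0.142), where 2 embryos per genotype remain. Leaving out embryos gave -0.26 to -0.16 for the Gja4 chamber difference in dKO embryos and 0.29 to 0.43 for the difference of Gja5 effects, called only without dKO embryo 1 (adjusted p = 0.0465). For the difference of Gjc1 effects it gave -0.048 to 0.072, with negative values without dKO embryo 2 or 3 (-0.021) or control embryo 2 (-0.030) or 4 (-0.0063).

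The 279 genes called in ventricles became 159 without the mean-variance trend, 469 with DESeq2 and 79 within the balanced title set. The 368 genes called for the difference of effects became 238 to 470 when 1 embryo was left out (238 without dKO embryo 3, 241 without control embryo 4) and 294 with no replicate block, which changed no connexin call. Causes of these changes were not tested. Length choice moved 15 of 16 shares by more than their SD. With 4 embryos per group, Gja5 in atria, the Gja4 chamber difference in dKO embryos and the differences of the Gja4 and Gja5 effects lie near the threshold, and 217 reads for Gja4 in the shallowest library limit its precision.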
